A study of Mus musculus with 30 samples.

Results

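Cholesterol and fatty acids are built from acetyl-CoA by 2 enzyme chains whose genes are among the best-known targets of the SREBP transcription factors. The gene list described here holds 32 genes, chosen by name: 19 of the sterol branch, 4 of SREBP control and 9 of the fatty acid branch. All 32 were found in both RNA count tables, which have 25763 gene symbols in common. They were followed in CD4 T cells of mice, with spleen and lymph nodes as the source, in 2 genotypes: a control (WT) and one labelled as a knockout of PKA (KO). PKA is the kinase that cyclic AMP switches on. RNA-seq covered 6 groups of 3 libraries. Naive WT and naive KO cells were sorted and profiled directly. Activated WT and activated KO cells had been stimulated for 3 days with antibodies to CD3 and CD28. Forskolin WT and forskolin KO cells had been rested in IL-7 for 3 days and then given forskolin at 1 ug/mL for 4 h. Forskolin switches on adenylyl cyclase and so raises cyclic AMP. ATAC-seq, which counts reads in open chromatin, covered the naive and activated groups, also with 3 libraries each. The labels do not name the deleted gene, the promoter of any Cre transgene, or the strain and age of the animals, and they do not say whether replicates came from separate animals, so a p-value measures only the spread between these libraries. No group of rested cells without forskolin is among the samples, so a genotype difference after forskolin and one already present in rested cells cannot be told apart.

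The sterol branch starts with the joining of acetyl-CoA units, runs through mevalonate and the isoprenoids to squalene, and closes the rings to lanosterol, from which further enzymes make cholesterol. SREBP2, the product of Srebf2, is held in the endoplasmic reticulum by SCAP and INSIG1 while sterols are plentiful, and moves to the nucleus when they run low. SREBP1, the product of Srebf1, is better known for the fatty acid branch. Proliferating T cells need both branches for new membrane, and resting T cells keep them low.

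Levels are given in CPM, a gene's count scaled to its library's total count in named genes, a unit that does not correct for gene length, so levels are compared between libraries and never between genes. Library totals ran from 7665955 to 11950488 counts in named genes. With forskolin every KO library was deeper than every WT library (9404642 to 11802115 against 7665955 to 9312606). Prkaca, which encodes the alpha catalytic subunit of PKA, was at 29.3 to 39.3 CPM in naive WT and 2.04 to 2.57 in naive KO, at 43.2 to 55.5 in activated WT and 0.92 to 1.45 in activated KO, and at 32.4 to 36.7 in forskolin WT and 2.72 to 3.9 in forskolin KO. It was thus lower in each KO library than in every WT library of its condition. The summed level of 6 CD4 T cell markers lay between 1809 and 3986 CPM in the 18 RNA libraries. In the forskolin libraries this sum was 2929 to 2972 CPM in WT and 2322 to 2408 CPM in KO. The 6 B cell markers summed to 169 to 191 CPM in forskolin WT and 326 to 337 CPM in forskolin KO. Almost all of that was Ighm, an immunoglobulin heavy chain gene, at 166 to 187 and 322 to 332 CPM, while the B cell genes Ms4a1 and Pax5 were each at or below 0.106 CPM in all 6 libraries. The B cell receptor genes Cd79a and Cd79b averaged 2.19 and 0.594 CPM in WT and 3.18 and 0.936 CPM in KO. The part of these marker shifts in the lipid gene results was not tested. In bulk RNA, more cells of a type and more RNA per cell cannot be told apart.

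Promoter sequences of 4 sterol genes are given, with matches to 1 spelling of the sterol regulatory element bound by SREBP and to the NF-Y box marked. RefSeq promoter entries (build GRCm38.p6, 250 bases before to 50 bases after a start) matched 25 of the 32 members, and those of Sqle, Fdps, Fdft1, Stard4, Scd1, Scd2 and Fads1 were not analysed here. The 5 motifs were searched on both strands in 32851 promoters of 27025 genes. A member counts if any of its promoters matches, so the share of genes is the like one. The letters TCACNCCAC, a sterol regulatory element, stood in 1.24% of all promoters (1.44% of genes) and in that of 1 member, Hmgcs1. The letters CCAAT, the core bound by NF-Y, a factor that works beside SREBP, stood in 37.4% of all promoters (41.1% of genes) and in those of 20 of the 25 members, 14 of them among the 15 sterol genes with an entry. The cyclic AMP response element TGACGTCA stood in 1.79% of all promoters (2.03% of genes) and in 0 of the 25. Its shorter form TGACG, which the full form contains, stood in 20.8% (23% of genes) and in 8 of the 25, and the E-box CACGTG in 7.15% (8.09% of genes) and in 5 of the 25. A match is a description of letters in this window and not a measured binding site. Other spellings of a sterol regulatory element were not searched, so a promoter without a match may still hold such an element. The sequences below are the 250 bases before the start, 5′ to 3′ on the gene's strand, with matches to TCACNCCAC and CCAAT, in either orientation, in capitals. Hmgcs1 is shown for its sterol regulatory element (chr13:119690101-119690350, plus strand), and Mvd (chr8:122443423-122443672, minus strand), Idi1 (chr13:8885356-8885605, plus strand) and Cyp51 (chr5:4104698-4104947, minus strand) because their RNA differed most between genotypes after forskolin among sterol genes with an entry.
Hmgcs1: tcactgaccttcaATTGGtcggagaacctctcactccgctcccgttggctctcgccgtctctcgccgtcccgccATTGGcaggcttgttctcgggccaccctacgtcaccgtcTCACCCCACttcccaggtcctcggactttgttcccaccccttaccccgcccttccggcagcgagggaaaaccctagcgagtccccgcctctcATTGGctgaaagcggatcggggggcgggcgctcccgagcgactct
Mvd: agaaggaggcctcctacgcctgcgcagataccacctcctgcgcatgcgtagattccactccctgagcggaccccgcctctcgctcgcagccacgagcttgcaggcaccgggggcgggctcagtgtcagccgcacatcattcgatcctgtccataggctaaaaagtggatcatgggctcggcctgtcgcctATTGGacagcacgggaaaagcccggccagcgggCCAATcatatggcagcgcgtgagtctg
Idi1: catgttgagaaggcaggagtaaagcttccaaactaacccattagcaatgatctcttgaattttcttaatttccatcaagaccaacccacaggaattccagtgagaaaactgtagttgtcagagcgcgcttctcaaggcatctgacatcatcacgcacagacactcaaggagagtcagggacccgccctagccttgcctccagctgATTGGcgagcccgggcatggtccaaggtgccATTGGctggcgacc
Cyp51: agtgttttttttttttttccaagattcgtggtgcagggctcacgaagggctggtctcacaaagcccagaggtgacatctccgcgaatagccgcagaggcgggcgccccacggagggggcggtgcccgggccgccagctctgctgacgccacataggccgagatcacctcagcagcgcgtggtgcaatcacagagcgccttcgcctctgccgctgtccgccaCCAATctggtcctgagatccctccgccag

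In activated cells the sterol branch ran several times above the naive level, in both genotypes, and with forskolin it stood apart by genotype. Its 19 genes summed to 444 to 612 CPM in naive WT and 496 to 599 CPM in naive KO, which overlap. After activation the sums were 2576 to 2632 CPM in WT and 2602 to 2759 CPM in KO, which overlap too. With forskolin they were 389, 406 and 411 CPM in WT and 640, 665 and 686 CPM in KO, with no overlap. The 9 fatty acid genes summed to 796 to 949 CPM in naive WT, 862 to 945 in naive KO, 2380 to 2395 in activated WT and 2331 to 2468 in activated KO. With forskolin the fatty acid sums were 724 to 781 CPM in WT and 822 to 866 CPM in KO, again without overlap but closer together. Sums of either branch weigh genes by their counts. Acly, at a mean of 272 CPM in forskolin WT and KO, and Fasn, at 188 and 259 CPM, added most to these fatty acid sums. The naive and activated libraries are in one table and the forskolin libraries in another. A level set across these tables may also hold technical differences between them.

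**Figure D1:**
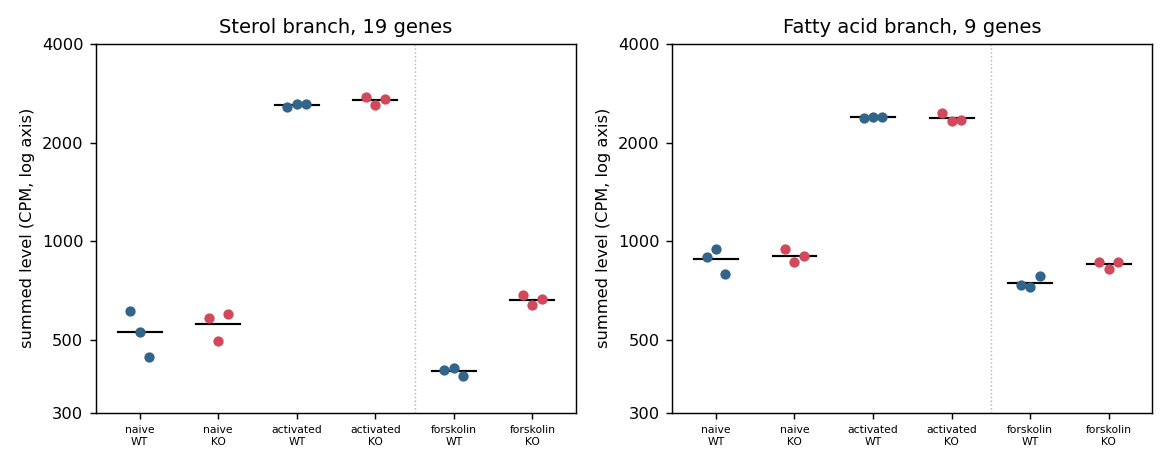
Summed RNA level of the 19 sterol genes (left) and the 9 fatty acid genes (right) in each library, in CPM on a log axis; points are libraries, lines are means of 3, and the dotted line separates the 2 count tables. The forskolin KO libraries sit at 640 to 686 CPM for the sterol branch and the forskolin WT libraries at 389 to 411 CPM, while WT and KO overlap in naive and activated cells.

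The first comparison asks what PKA loss does to these genes in cells given forskolin. Differences are log2 fold changes of KO over WT with a standard error from edgeR's quasi-likelihood test, and a gene is called at a Benjamini-Hochberg adjusted p under 0.05 over all 11658 genes tested. Here 19.7% of all genes were called higher and 18.8% lower. Among 30 members tested, 19 were higher and 2 lower in KO. In the sterol branch 13 of 19 were higher, 0 were lower, and the fold changes of all 19 were positive, from 0.05 to 1.81 with a median of 0.65, beside a median of -0.00 over all genes tested. Without KO replicate 1 the sterol median was 0.52.

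The 4 largest differences were those of Sqle, Idi1, Cyp51 and Fdps. Sqle, which encodes squalene epoxidase, a rate-limiting step after squalene, was at 14.0, 13.6 and 9.45 CPM in forskolin WT and at 48.9, 39.9 and 41.6 CPM in forskolin KO. The lowest KO library was above every WT library, and the log2 fold change was 1.81 ± 0.12 (adjusted p = 1.65e-08), or 3.51-fold. Idi1, the isomerase that readies isoprenoid units for chain building, was at 4.83, 7.31 and 5.69 CPM in WT and 19.1, 17.9 and 18.5 CPM in KO, a difference of 1.61 ± 0.15 (adjusted p = 2.29e-10). Cyp51, the lanosterol demethylase, was at 29.2, 27.3 and 23.6 CPM in WT and 76.9, 63.9 and 78.6 CPM in KO, a difference of 1.44 ± 0.09 (adjusted p = 7.4e-11). Fdps, which makes farnesyl diphosphate, was at 15.9, 17.6 and 18.6 CPM in WT and 39.1, 37.6 and 37.4 CPM in KO, a difference of 1.11 ± 0.08 (adjusted p = 4.35e-12). In each of these 4 genes the KO libraries were all higher than the WT libraries.

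Other enzymes of the chain followed with smaller differences. Mvd, which makes isopentenyl diphosphate, was at 17.0, 14.3 and 16.6 CPM in WT and 33.4, 32.5 and 31.1 CPM in KO, which came to 1.00 ± 0.09 (adjusted p = 2.29e-10). Fdft1, squalene synthase, was at 18.8, 17.3 and 18.4 CPM in WT and 33.1, 35.3 and 33.3 CPM in KO, which came to 0.88 ± 0.08 (adjusted p = 4.45e-10). Lss, which closes the rings to lanosterol, was at 16.7, 21.3 and 19.4 CPM in WT and 33.6, 37.5 and 36.4 CPM in KO, which came to 0.88 ± 0.09 (adjusted p = 2.18e-09). The KO libraries of these 3 genes again lay wholly above the WT libraries. Msmo1, a methylsterol oxidase, was at 21.1, 24.5 and 21.2 CPM in WT and 44.1, 40.0 and 41.9 CPM in KO (0.90 ± 0.08, adjusted p = 2.25e-10). Dhcr7, which catalyses a last step to cholesterol, was at 24, 23.9 and 24.2 CPM in WT and 38.6, 38.0 and 41.0 CPM in KO (0.68 ± 0.08, adjusted p = 1.44e-08). Sc5d, the sterol desaturase before it, was at 47.2, 47.6 and 41.3 CPM in WT and 59.7, 59.9 and 63.4 CPM in KO (0.41 ± 0.07, adjusted p = 9.11e-06). WT and KO did not overlap in these late steps either.

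Other members of the branch differed less clearly or were not called. Hmgcs1, which makes HMG-CoA and whose promoter above carries the sterol regulatory element, was at 57.8, 54.5 and 49.2 CPM in WT and 100, 74.0 and 81.9 CPM in KO. Its libraries did not overlap, and its difference of 0.65 ± 0.13 (adjusted p = 0.0113) rose to an adjusted p of 0.0582 without WT replicate 3. Mvk, mevalonate kinase, was at 11.1, 11.3 and 12 CPM in WT and 14.2, 14.5 and 14.7 CPM in KO, a difference of 0.31 ± 0.12 (adjusted p = 0.0499). That call was lost when any 1 library was left out, with adjusted p up to 0.163 over all alternatives. Stard4, which carries cholesterol between membranes, was at 20.9, 24.5 and 21.7 CPM in WT and 26.1, 27.6 and 28.8 CPM in KO. It came to 0.28 ± 0.09 (adjusted p = 0.0122), and the call was lost without WT replicate 1 or 3 or KO replicate 3, with adjusted p up to 0.0788 over all alternatives. No call was made for Acat2 (0.15 ± 0.09), which joins 2 acetyl-CoA units, or Pmvk (0.27 ± 0.12), which adds the second phosphate to mevalonate. The same held for 4 enzymes of the later sterol steps: Tm7sf2 (0.14 ± 0.13), Nsdhl (0.11 ± 0.13), Hsd17b7 (0.16 ± 0.12) and Ebp (0.05 ± 0.08).

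Among the regulators, the 2 SREBP genes were called in opposite directions. Srebf2 was at 332, 314 and 328 CPM in forskolin WT and 446, 443 and 463 CPM in KO, with no overlap, a difference of 0.45 ± 0.03 (adjusted p = 7.67e-12). Srebf1 was at 123, 131 and 130 CPM in WT and 97.3, 109 and 102 CPM in KO, with every KO library lower, a difference of -0.34 ± 0.05 (adjusted p = 1.13e-06). Insig1, the sterol-regulated anchor of the SREBP complex, was at 39.5, 38.5 and 35.3 CPM in WT and 63.8, 61.6 and 59.6 CPM in KO, a difference of 0.69 ± 0.07 (adjusted p = 9.26e-10). Scap, the escort of SREBP, was not called (0.08 ± 0.04). Counts by gene symbol do not separate the isoforms of Srebf1.

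The fatty acid branch differed less. Its 7 tested genes had a median of 0.24, with 4 called higher and 2 not called, and Elovl6 lower. Fasn, fatty acid synthase, was at 183, 177 and 202 CPM in WT and 262, 242 and 273 CPM in KO, a difference of 0.44 ± 0.05 (adjusted p = 2.86e-05). Scd2, a desaturase that makes monounsaturated fatty acids, was at 61.0, 52.0 and 69.8 CPM in WT and 82.8, 76.6 and 82.7 CPM in KO, a difference of 0.38 ± 0.08 (adjusted p = 0.00313). In both genes WT and KO did not overlap. Acaca, the acetyl-CoA carboxylase that feeds fatty acid synthase, was at 45.0, 52.5 and 47.4 CPM in WT and 59.7, 57.3 and 59.1 CPM in KO, a difference of 0.26 ± 0.07 (adjusted p = 0.00196). Acss2, which makes acetyl-CoA from acetate, was at 63.5, 57.9 and 56.4 CPM in WT and 72.7, 68.9 and 70.7 CPM in KO, a difference of 0.24 ± 0.06 (adjusted p = 0.00155). Elovl6, which lengthens saturated fatty acids, was at 71.0, 71.9 and 69.5 CPM in WT and 66.6, 61.8 and 63.4 CPM in KO. Its difference was -0.17 ± 0.06 (adjusted p = 0.0173), a call lost when WT replicate 1, WT replicate 2, KO replicate 2 or KO replicate 3 was left out (adjusted p up to 0.0954 over all alternatives). Acly, ATP citrate lyase (-0.02 ± 0.03), and Fads1, a desaturase of polyunsaturated fatty acids (-0.11 ± 0.07), were not called. Scd1, the other stearoyl-CoA desaturase of the list, and Fads2, the desaturase upstream of Fads1, were not tested because they had almost no counts, at most 1.61 and 0.508 CPM in any forskolin library.

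**Figure D2:**
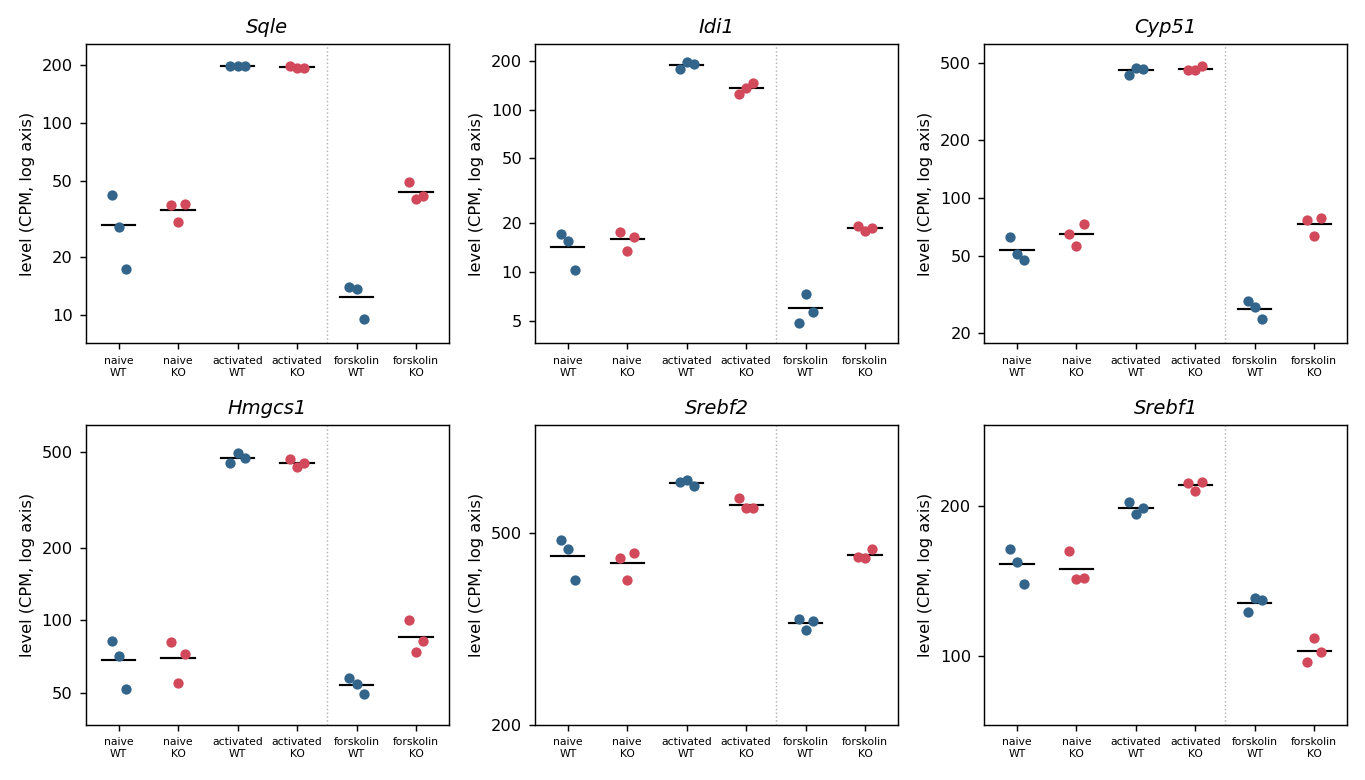
RNA level (CPM, log axis) in every library of 4 sterol enzymes and the 2 SREBP genes; points are libraries, lines are means of 3, and the dotted line separates the 2 count tables. With forskolin, Sqle stands at 39.9 to 48.9 CPM in KO and 9.45 to 14.0 CPM in WT, and Srebf1 is the panel in which the KO libraries lie lower.

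In naive cells 0 of 32 members were called between genotypes by edgeR, DESeq2 or limma-voom, and 1, Cyp51 (0.25 ± 0.09, adjusted p = 0.73), had an unadjusted p under 0.05 in edgeR. Of 11980 genes tested, 0.125% were called higher and 0.117% lower in KO. The 19 sterol genes ran from -0.20 to 0.25 with a median of 0.03, beside a median of -0.01 over all genes. Sqle was at 41.9, 28.6 and 17.4 CPM in naive WT and 37.5, 30.5 and 37.7 CPM in naive KO, so the WT libraries spanned the KO ones (0.24 ± 0.21, adjusted p = 1). Hmgcs1 was at 82.2, 70.9 and 52.0 CPM in WT and 81.0, 55.0 and 72.1 CPM in KO (0.00 ± 0.13, adjusted p = 1). Insig1 was at 50.7, 39.5 and 35.8 CPM in WT and 50.9, 35.3 and 52.0 CPM in KO (0.11 ± 0.12, adjusted p = 1). In all 3 genes WT replicate 3 was the lowest of its group. Srebf2 was at 483, 463 and 399 CPM in WT and 443, 400 and 454 CPM in KO (-0.07 ± 0.06), and Srebf1 at 164, 155 and 140 and at 163, 143 and 144 CPM (-0.05 ± 0.06), both with adjusted p = 1. Fasn was at 274, 305 and 217 CPM in WT and 300, 243 and 280 CPM in KO (0.03 ± 0.10), and Acaca at 55.0, 58.9 and 45.3 and at 51.0, 49.2 and 46.3 CPM (-0.14 ± 0.08), also with adjusted p = 1.

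In activated cells the genotype differences of the members were mixed and mostly small. Of all genes 5.89% were called higher and 9.04% lower in KO, and of the 32 members 6 were called higher and 3 lower. Mvd was at 68.5, 66.3 and 64.8 CPM in activated WT and 94.1, 95.6 and 92.7 CPM in KO, a difference of 0.48 ± 0.09 (adjusted p = 0.00105). Dhcr7 was at 67.3, 72.8 and 69.7 CPM in WT and 92.1, 84.2 and 89.4 CPM in KO, a difference of 0.32 ± 0.07 (adjusted p = 0.00332). Idi1 was lower, at 178, 195 and 192 CPM in WT and 124, 136 and 145 CPM in KO, a difference of -0.51 ± 0.10 (adjusted p = 0.00147). These 3 genes did not overlap between genotypes and were called under every alternative. Idi1 was thus lower in activated KO cells and higher in forskolin KO cells.

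The other 6 calls in activated cells were lost under one or more alternatives. Mvk was at 28.3, 28.9 and 29.7 CPM in WT and 35.6, 35.7 and 35.3 CPM in KO (0.27 ± 0.09, adjusted p = 0.0458). Pmvk was at 58.4, 68.4 and 71.6 CPM in WT and 82.3, 78.5 and 83.4 CPM in KO (0.28 ± 0.09, adjusted p = 0.0488). Sc5d was at 91.1, 86.7 and 78.9 CPM in WT and 112, 101 and 102 CPM in KO (0.27 ± 0.08, adjusted p = 0.0358). All 3 sterol enzymes had WT and KO libraries that did not overlap. Here and in the other comparisons, a lack of overlap is read from the same values as the test. Its share over all genes was not computed. Fads2 was at 76.0, 68.0 and 66.6 CPM in WT and 103, 82.3 and 90.2 CPM in KO (0.36 ± 0.10, adjusted p = 0.02). Scd1 was at 109, 71.5 and 73.2 CPM in WT and 65.5, 37.1 and 39.1 CPM in KO (-0.86 ± 0.22, adjusted p = 0.0228), with replicate 1 the highest in both groups. Acly was at 568, 567 and 546 CPM in WT and 494, 496 and 484 CPM in KO (-0.21 ± 0.06, adjusted p = 0.0253). The number of calls fell from 9 to 4 without activated WT replicate 2, to 5 without activated WT replicate 3, to 4 without activated KO replicate 1 or 2 and to 3 without activated KO replicate 3.

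Sqle, which led the list with forskolin, was at 198, 198 and 197 CPM in activated WT and 198, 193 and 194 CPM in activated KO (-0.04 ± 0.17, adjusted p = 0.903). Hmgcs1 was at 450, 495 and 472 CPM in WT and 467, 431 and 447 CPM in KO (-0.10 ± 0.12, adjusted p = 0.643). Insig1 was at 177, 168 and 159 CPM in WT and 174, 161 and 160 CPM in KO (-0.05 ± 0.11, adjusted p = 0.8). These 3 genes overlapped between genotypes. Srebf2 was at 638, 644 and 627 CPM in WT and 590, 564 and 564 CPM in KO, lower in each KO library but not called (-0.18 ± 0.06, adjusted p = 0.0786). Srebf1 was at 204, 193 and 199 CPM in WT and 223, 215 and 224 CPM in KO, higher in each KO library but not called (0.13 ± 0.06, adjusted p = 0.21). Fasn was at 577, 705 and 717 CPM in WT and 676, 713 and 696 CPM in KO (0.04 ± 0.10, adjusted p = 0.851). Acaca was at 163, 176 and 165 CPM in WT and 178, 172 and 165 CPM in KO (0.01 ± 0.07, adjusted p = 0.974). In activated cells the 6 B cell markers summed to 106 to 132 CPM in WT and 171 to 198 CPM in KO. Of these, Ighm averaged 116 and 179 CPM, Cd79b 1.98 and 4.53, Cd79a 0.214 and 0.583, and Ms4a1 0.0943 and 1.11 CPM in WT and KO, and their part in these values was not tested.

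**Figure D3:**
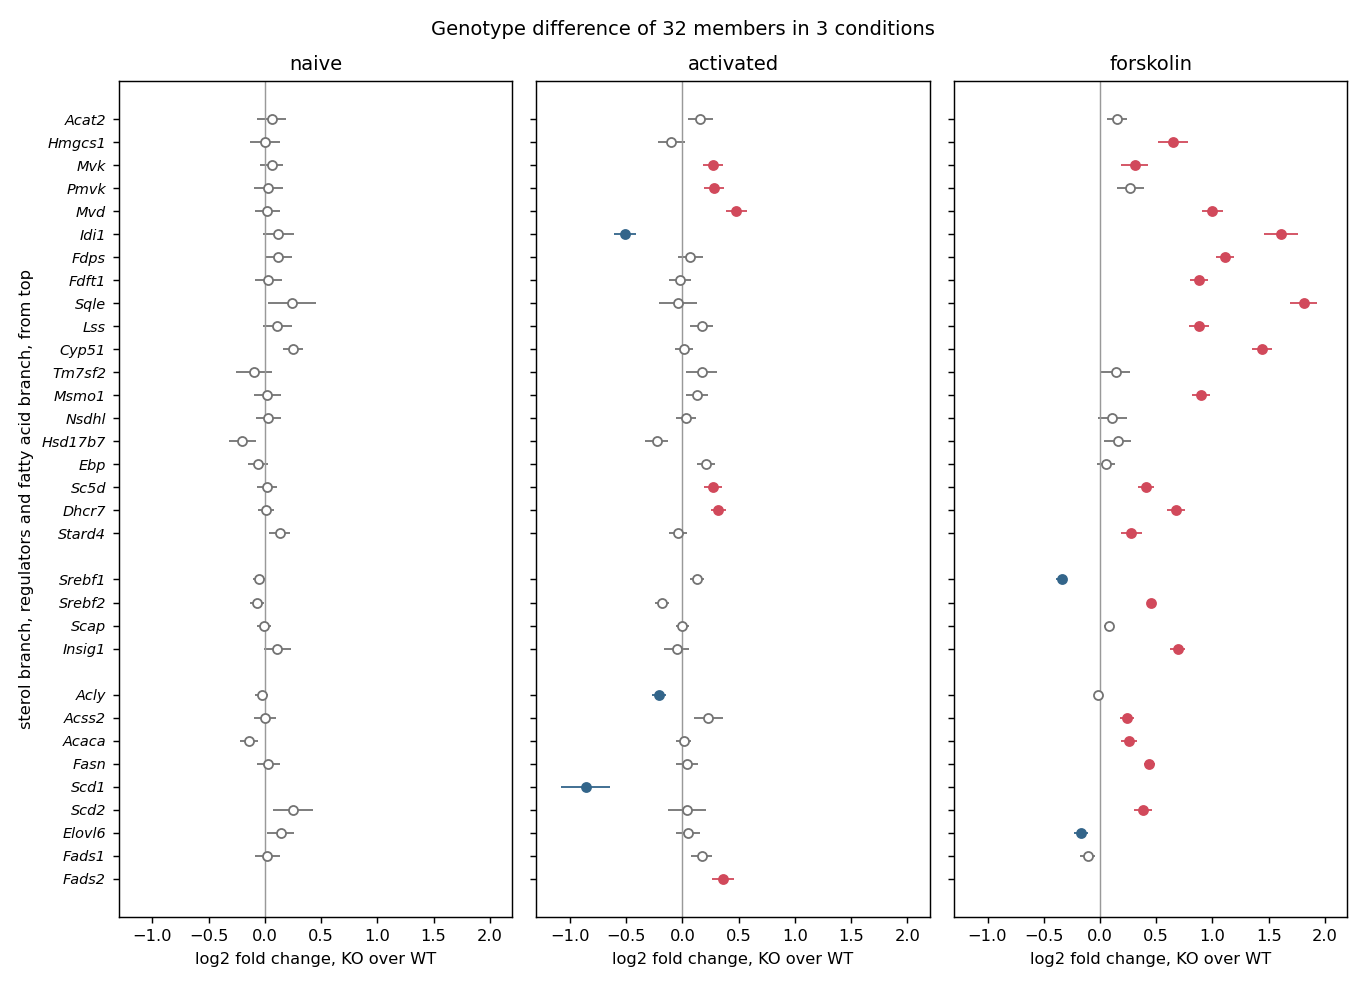
Log2 fold change of KO over WT for each member in naive, activated and forskolin cells, with the standard error as a bar; filled red points were called higher, filled blue points lower, and open points were not called. Scd1 and Fads2 are left out where they had almost no counts. The sterol genes lie to the right of 0 in the forskolin panel (0.05 to 1.81) and around 0 in the naive panel (-0.20 to 0.25).

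Whether the genotype difference itself changed with the condition was tested in 1 fit over all 18 RNA libraries and 12607 genes, chosen after the separate results were known. The difference with forskolin minus that in naive cells was called higher for 7.09% of all genes and lower for 3.82%. Of the members 15 were called higher and 0 lower, 11 of them in the sterol branch, whose median was 0.68 beside 0.04 over all genes. The largest were Sqle at 1.60 ± 0.30 (adjusted p = 0.00244), Idi1 at 1.53 ± 0.20 (adjusted p = 9.1e-06) and Cyp51 at 1.22 ± 0.14 (adjusted p = 8.42e-07). Against activated cells 12.3% of all genes were called higher and 5.82% lower, with 14 members higher and 1, Srebf1, lower at -0.43 ± 0.09 (adjusted p = 0.000735). Idi1 had the largest such value at 2.15 ± 0.18 (adjusted p = 5.07e-09). Both contrasts use the same forskolin libraries. The forskolin cells were handled differently from the others (IL-7 rest), and their counts are in a separate table. Forskolin, rest and any technical difference between the tables cannot be told apart in either contrast.

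Activation raised nearly the whole list. In WT cells 42.3% of all genes were called higher and 40.3% lower in activated than in naive cells, and 31 of 32 members were higher. In KO cells 42.3% of all genes were called higher and 39.8% lower, and again 31 of 32 members were higher. The exception in both was Acss2, which fell from 95.0, 106 and 111 CPM to 14.2, 13.1 and 14.1 CPM in WT and from 91.9, 119 and 107 CPM to 16.9, 16.6 and 16.0 CPM in KO. Its log2 fold change was -3.04 ± 0.11 in WT (adjusted p = 5.37e-14) and -2.81 ± 0.11 in KO (adjusted p = 1.25e-13). The median of the sterol branch was 1.94 in each genotype, beside 0.03 in WT and 0.04 in KO over all genes. Both genotypes' values come from 1 fit, and they share no library with each other.

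Within the sterol branch the rise in WT was largest for Idi1 (3.59 ± 0.12), Cyp51 (2.96 ± 0.09), Pmvk (2.75 ± 0.11), Hmgcs1 (2.67 ± 0.13), Fdps (2.64 ± 0.12), Sqle (2.63 ± 0.19) and Lss (2.61 ± 0.12). In the middle lay Fdft1 (2.12 ± 0.11), Stard4 (2.11 ± 0.09), Nsdhl (1.94 ± 0.10), Msmo1 (1.90 ± 0.11), Acat2 (1.68 ± 0.12), Hsd17b7 (1.65 ± 0.11) and Mvd (1.37 ± 0.10). It was smallest for Sc5d (0.95 ± 0.09), Mvk (0.77 ± 0.09), Tm7sf2 (0.66 ± 0.15), Dhcr7 (0.56 ± 0.07) and Ebp (0.31 ± 0.09). Idi1 rose from 17.2, 15.4 and 10.3 CPM to 178, 195 and 192 CPM in WT, and from 17.5, 13.5 and 16.5 CPM to 124, 136 and 145 CPM in KO.

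The regulators moved little apart from Insig1, itself a known SREBP target, which changed by 1.88 ± 0.12 in WT and 1.72 ± 0.12 in KO. Srebf2 changed by 0.38 ± 0.06 and 0.28 ± 0.06, Srebf1 by 0.25 ± 0.06 and 0.43 ± 0.06, and Scap by 0.17 ± 0.06 and 0.18 ± 0.06 in WT and KO. The call of Scap in WT was lost without naive WT replicate 1 or 3 or activated WT replicate 2 or 3, with adjusted p up to 0.138 over the alternatives, and that in KO without naive KO replicate 2 (adjusted p = 0.0604).

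The fatty acid branch held the widest range. Fads2 had 0 counts in the 3 naive WT libraries and stood at 66.6 to 76.0 CPM after activation, at least 678-fold higher if the naive group is set at 3 counts in all. In KO it went from 1 count in 3 naive libraries to 82.3 to 103 CPM. Its neighbour on chromosome 19, Fads1, changed by 1.68 ± 0.10 in WT and 1.82 ± 0.10 in KO. Scd1 went from 0.106 to 0.363 CPM in naive WT to 71.5 to 109 CPM in activated WT, and from 0.453 to 0.832 to 37.1 to 65.5 CPM in KO. Scd2 changed by 3.24 ± 0.19 in WT and 3.03 ± 0.19 in KO, Acaca by 1.54 ± 0.08 and 1.68 ± 0.08, and Fasn by 1.21 ± 0.10 in both. The smaller changes were those of Acly (0.57 ± 0.06 and 0.39 ± 0.06) and Elovl6 (0.54 ± 0.12 and 0.45 ± 0.12). Scd1 and Scd2 belong to a family of closely similar genes, as does Idi1 with its neighbour Idi2, and how reads shared between such copies were counted is not given in the sources used here.

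**Figure D4:**
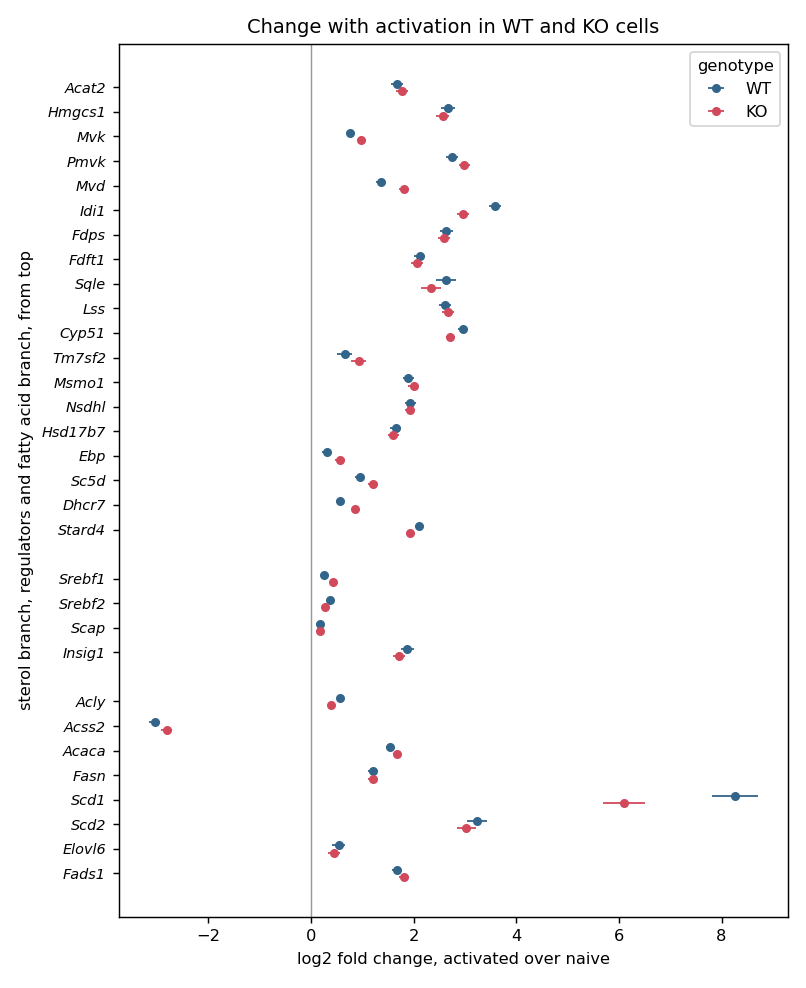
Log2 fold change of activated over naive cells for 31 members in WT (blue) and KO (red), with the standard error as a bar. Acss2 is the 1 gene left of 0, and WT and KO lie close together apart from Scd1, whose naive level was under 1 CPM, and Idi1. Fads2 is left out because it had 0 counts in naive WT.

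The test of whether activation acted differently in KO called 1.18% of all genes higher and 2.52% lower, and 1 member. The change of Idi1 with activation in KO minus that in WT was -0.62 ± 0.17 on the log2 scale (adjusted p = 0.0477), a call lost under 12 of 20 alternatives, with adjusted p up to 0.138. The replicate block is one of them, with -0.62 and an adjusted p of 0.0529. Mvd, next to it in the pathway, had the largest positive value among the sterol genes, 0.45 ± 0.14 (adjusted p = 0.08), and was not called.

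The change with activation and the genotype difference with forskolin can be set side by side, since they share no library. Over the 19 sterol genes Pearson's r was 0.63 and Spearman's rho 0.56, and over the 30 members tested 0.54 and 0.60, as a description across genes of 1 pathway, which are not independent. Sqle, Idi1 and Cyp51 were high on both scales. Pmvk and Nsdhl changed with activation by 2.75 and 1.94 but differed with forskolin by 0.27 and 0.11. Acss2 fell by 3.04 with activation in WT and was higher in forskolin KO by 0.24. For the genotype difference in activated cells against that with forskolin, r was -0.34 and rho -0.22 over the sterol genes. For that in naive cells, where 0 members were called, against that with forskolin, r was 0.71 and rho 0.58 over the same genes.

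**Figure D5:**
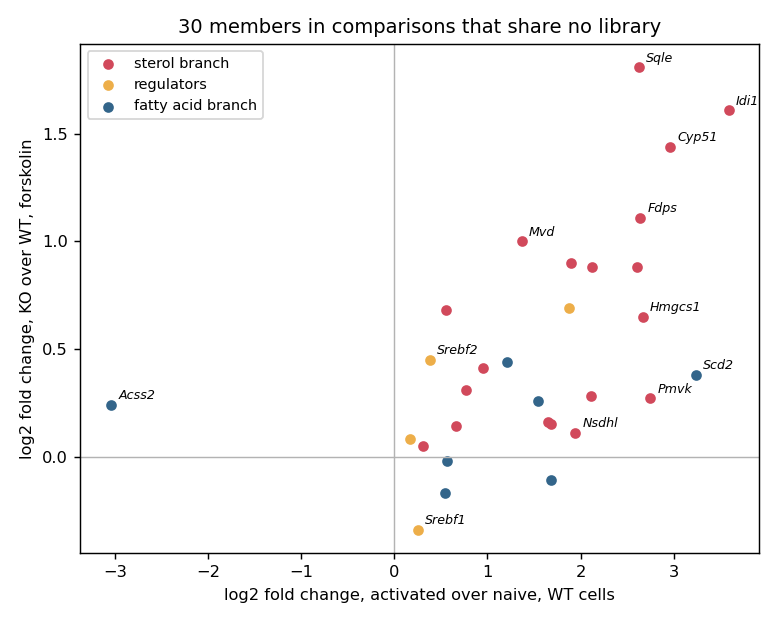
Each point is 1 of the 30 members tested in both comparisons; the x axis is its log2 fold change with activation in WT cells and the y axis its log2 fold change of KO over WT with forskolin. Sqle, Idi1 and Cyp51 lie at the upper right, Pmvk and Nsdhl lie low at 0.27 and 0.11 on the y axis, and Acss2 is alone at the left.

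Open chromatin at the starts of these genes was read from 29 ATAC-seq sites of 400 bases lying within 1000 bases of a RefSeq start of 25 members. The 12 libraries held 18522373 to 25318916 counts in all sites. Between genotypes in naive cells 0.938% of 110797 sites were called higher and 0.607% lower, and 0 of the 29 by edgeR or in the authors' deposited table, with 1 at an unadjusted p under 0.05. In activated cells 10.9% of all sites were called higher and 17.5% lower, and among 14158 sites near any RefSeq start 14.6% higher and 7.22% lower. Of the 29 sites 9 were called higher, by 0.14 to 0.20 on the log2 scale, at Acat2, Dhcr7, Fasn, Lss, Pmvk, Sc5d and 3 starts of Srebf1. These calls depend on the scaling: 0 remained with RLE scaling and 15 were made with scaling to the total in sites. Calls near any start shifted too. Of those 14158 sites, 904 were called higher and 1060 lower with RLE scaling, and 3700 higher and 958 lower with scaling to the total in sites. The authors' deposited table called 0 of them. Leaving out activated WT replicate 2 or 3, or activated KO replicate 2 or 3, also left 0, while 1 was left without activated KO replicate 1 and 4 without activated WT replicate 1.

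With activation, sites at the starts of sterol genes were called lower under TMM scaling, a scaling in which other sites rose, while their RNA rose. In WT 51.4% of all sites were called higher and 38.5% lower, but among sites near any start 28.9% were higher and 62.3% lower, with a median of -0.59 there and 0.54 over all sites. All 16 sterol sites were called lower in WT, with a median of -0.89, and of the 29 sites 26 were lower and 2 higher. In KO 49.7% of all sites were called higher and 38.8% lower, and of sites near a start 28% and 62.1%, with 24 of the 29 lower and 2 higher. With scaling to the total in sites the median over all sites moved from 0.54 to 1.09 in WT and from 0.44 to 1.04 in KO. Under it the median of the 29 sites moved from -0.82 to -0.26 in WT and from -0.66 to -0.05 in KO. That of sites near any start moved from -0.59 to -0.03 and from -0.54 to 0.07. The 29 split into 22 lower and 5 higher in WT and 14 lower and 7 higher in KO. Of 14158 sites near any start, the same scaling called 6253 lower and 5865 higher in WT and 5305 lower and 6333 higher in KO. In CPM, the Pmvk site averaged 24 in naive WT and 30.9 in activated WT, and 23.6 and 35.8 in KO, and the Tm7sf2 site 39.1 and 41.7 in WT and 40.2 and 44.8 in KO. At Hmgcs1 the site over the promoter printed above was at 125, 128 and 115 CPM (per total of counts in sites) in naive WT and 112, 117 and 112 in activated WT, and its log2 fold change was -0.67 ± 0.05 (adjusted p = 1.68e-11).

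Of 7 sites at fatty acid genes, 2 were called higher and 4 lower with activation in WT under TMM scaling. Among the lower ones were those of Acly (-0.82 ± 0.05) and Acss2 (-0.87 ± 0.05). Larger changes were those at Fads2, Acaca and Fasn. The Fads2 site, centred 333 bases before the start, was at 0.688, 0.839 and 0.972 CPM in naive WT and 43.2, 38.7 and 39.1 in activated WT, a change of 5.05 ± 0.14 (adjusted p = 2.38e-18) beside the appearance of its RNA. In KO the same site went from 0.514, 1.06 and 0.964 to 46.8, 42.2 and 44.7 CPM (5.09 ± 0.14, adjusted p = 2e-18). A site centred 484 bases before a start of Acaca went from 0, 1 and 2 counts in naive WT to 61, 29 and 33 counts in activated WT (4.55 ± 0.60, adjusted p = 3.63e-07). A site centred 1197 bases before the start of Fasn went the other way, from 17.0, 18.1 and 16.4 CPM in naive WT to 2.37, 1.5 and 2.12 in activated WT (-3.66 ± 0.13, adjusted p = 1.3e-16). The site over the Fasn start itself changed by -0.64 ± 0.05 in WT under TMM scaling, where Fasn RNA rose by 1.21. In CPM this start site averaged 63.2 in naive WT and 59.9 in activated WT, and 60.5 and 67.2 in KO.

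Genes around the pathway were called in both directions with forskolin, where 19.7% of all genes tested were called higher and 18.8% lower in KO. Of 22 other sterol genes, for uptake, transport, storage and sensing, 5 were higher and 9 lower in KO. Soat2, which esterifies cholesterol, was higher by 1.00 ± 0.20 (adjusted p = 0.000257). The cholesterol exporter Abca1 was at 52.2, 48.2 and 48.3 CPM in WT and 16.9, 18.1 and 19.7 CPM in KO, a difference of -1.47 ± 0.08 (adjusted p = 2.2e-15). Mylip, a ubiquitin ligase gene, was lower by 0.66 on the log2 scale (adjusted p = 8.27e-12). Of 12 other fatty acid genes tested 2 were higher and 3 lower, among them the acyl-CoA synthetases Acsl5 at 0.62 ± 0.06 and Acsl3 at -0.56 ± 0.09. Of 11 fatty acid oxidation genes 3 were higher and 1 was lower, all within 0.33 of 0 on the log2 scale.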

How the data were processed

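RNA-seq was read from 2 tables of counts per gene symbol, and ATAC-seq from 2 tables of counts per site (110808 sites in each), as the authors deposited them. The ATAC-seq tables also hold the authors' adjusted p-values (FDR), which were deposited with them. Per the submitters' processing notes the build is mm10. Aligner, counter, peak caller and strand setting are not given in the sources used here. Per the labels' protocols, libraries were made with an NEBNext Ultra II RNA kit or an Active Motif ATAC-Seq kit. Rows without a gene symbol (1314 of 27179 in the table of naive and activated cells, 0.128 to 0.159% of counts) were left out.

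Counts were tested with edgeR 4.0.16 (filterByExpr, TMM scaling, robust quasi-likelihood fit, Benjamini-Hochberg adjustment) in R 4.3.3: 1 fit over the 12 naive and activated libraries, 1 over the 6 forskolin libraries, 1 over the 12 ATAC-seq libraries, and 1 over all 18 RNA libraries. The standard error is the log2 fold change divided by the square root of the F statistic. Alternatives were other scalings, filters, DESeq2 1.42.0, limma 3.58.1 (voom), a stricter threshold, a replicate block and leaving out each library. The fit over 18 libraries and the thinning of libraries to the smallest total were chosen after seeing the data. The edgeR fit of KO against WT was tried on simulated RNA counts modelled on the activated and the forskolin libraries. The other fits and the motif search were not tried in this way. The members and lists were chosen with earlier results of these data known.

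All 32 members are named. Values in every library are given for members called between genotypes or in the interaction, and for Srebf1, Srebf2, Insig1, Sqle, Hmgcs1, Fasn and Acaca. Of the other lipid genes only some of those called between genotypes are named. Some genes of these lists and of the marker lists are not reported here. Same-numbered libraries deviated together in activated WT and KO (r of 0.236 to 0.557 in 3 pairs) and in naive and activated KO (0.126 to 0.36), where the block changed no member's call in the comparison of those 2 groups. The interaction also needs naive WT, whose same-numbered libraries correlated at 0.117 to 0.363 with activated KO. With naive KO they correlated at 0.004 to 0.409 and with activated WT at 0.097 to 0.267. The lowest of each of these last 2 ranges was under the minimum set, 0.1. In the interaction the block ended the call of Idi1. No pair of replicates agreed within sampling noise. RefSeq gene spans of 15 members overlap another gene (Fdft1 that of Ctsb, and Lss, Mvd, Insig1 and Acss2 those of noncoding genes among them), so their counts may hold reads of it. RefSeq symbols, positions and promoters are of GRCm38.p6, the mm10 assembly.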

Additional observations from a re-analysis of the deposited data

Results flagged for a closer look

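For 30 pairs of a member and a contrast, and for Idi1 with activation, the genotype difference itself differed between conditions in edgeR's quasi-likelihood test, with Benjamini-Hochberg adjusted p under 0.05 over all genes. Values are log2 differences of the KO over WT fold changes. For forskolin minus naive cells they were, in pathway order, 0.68 for Hmgcs1, 1.00 for Mvd, 1.53 for Idi1, 1.01 for Fdps, 0.87 for Fdft1, 1.60 for Sqle, 0.80 for Lss, 1.22 for Cyp51, 0.90 for Msmo1, 0.42 for Sc5d and 0.70 for Dhcr7. The regulators Srebf2 and Insig1 stood at 0.55 and 0.61, and the fatty acid genes Acaca and Fasn at 0.43 and 0.45. The calls of Hmgcs1, Sc5d and Fasn were lost under some alternatives, with adjusted p up to 0.087, 0.0882 and 0.11.

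For forskolin minus activated cells they were 0.78 for Hmgcs1, 0.56 for Mvd, 2.15 for Idi1, 1.07 for Fdps, 0.94 for Fdft1, 1.89 for Sqle, 0.74 for Lss, 1.47 for Cyp51, 0.80 for Msmo1, 0.40 for Dhcr7 and 0.35 for Stard4. Srebf2 and Insig1 stood at 0.66 and 0.78, Fasn at 0.44 and Srebf1 at -0.43. The calls of Stard4 and Fasn were lost under some alternatives, with adjusted p up to 0.132 and 0.0736. The activation change of Idi1 was smaller in KO than in WT, with a difference of -0.62, a call lost under 12 of 20 alternatives, limma-voom, upper-quartile scaling and the replicate block among them (adjusted p up to 0.138). Both forskolin contrasts use the same 6 forskolin libraries, and Idi1 enters all 3.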

How the results depend on the processing

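Counts of called members stayed within 1.5 times the reported count under every alternative run for naive cells (0), activation in WT and in KO (31 to 32), forskolin (17 to 22), forskolin minus naive (12 to 16) and forskolin minus activated (13 to 17). For activated KO against WT the 9 calls became 3 at an adjusted p of 0.01 and 3 to 10 when 1 library was left out. For the genotype by activation interaction the 1 call became 0 with upper-quartile scaling, 0 with limma-voom, 0 at an adjusted p of 0.01 and 2 with DESeq2, and 0 to 2 when 1 library was left out. Sites at member starts in activated cells numbered 15 with scaling to the total in sites, 0 with RLE scaling, 0 by the authors' deposited FDR and 0 to 9 when 1 library was left out, against 9. Of 14158 sites near any start, 3700 were called higher and 958 lower with scaling to the total in sites. With RLE scaling these were 904 and 1060, against 2074 and 1022 with TMM scaling. The cause of these shifts was not tested. Thinning all forskolin libraries to the smallest total, chosen after seeing the data, left 20 members called. The median of the fatty acid branch moved from 0.03 to 0.15 in naive cells without WT replicate 2, and from -0.09 to 0.07 for the interaction and from 0.16 to 0.34 for forskolin minus naive without naive KO replicate 1. In the fits compared, no called member changed direction.

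With the replicate number as a block, 22 members were called with forskolin, 9 in activated cells, 15 for forskolin minus naive, 17 for forskolin minus activated and 0 in naive cells. The replicate block also gave 1 call in the interaction, that of Scd1 in place of Idi1 (adjusted p = 0.0529 for Idi1). For forskolin, same-numbered libraries correlated at 0.078 to 0.217, so the numbers were not taken to pair the samples.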
